A study of Mus musculus with 28 samples.

Results

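Interleukin-4 (IL-4) alone was set against no treatment in cultured mouse macrophages, with 11 of the 28 arrays of the series. The treated cells received 10 ng/ml IL-4 for 18 h from day 7 of culture (4 arrays, experiments A, B, C and G, no LPS), and their controls received neither cytokine nor LPS (7 arrays, experiments A to G). The arrays were chosen by their labels, not by their values. All cells were bone marrow-derived macrophages of C57BL6/J mice of 8 to 12 weeks, grown in 200 ng/ml recombinant human CSF1, the growth factor that turns marrow cells into macrophages. Marrow of several animals was pooled, and its donors are labelled as 2 males with 1 female, so an array stands for a pool and not for a mouse. Arrays are named here by treatment and experiment letter. No label says that the experiments came from separate animals, so the p-values measure only the spread between these cultures. For some genes 3 further groups are used, namely IL-4 followed by 10 ng/ml LPS for the last 4 h (4 arrays), LPS alone (7 arrays) and 100 U/ml IFN-γ for 18 h (3 arrays). The remaining group, IFN-γ followed by LPS at these doses and times (3 arrays), is not compared. It enters the filter of genes and the model's shared estimate of the spread.

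IL-4 is the cytokine of allergic and anti-helminth immunity. It binds a receptor made of the IL-4Rα chain with either the common γ chain or IL-13Rα1. Janus kinases bound to the receptor then phosphorylate the transcription factor STAT6, which enters the nucleus and binds palindromic sites of TTC and GAA held apart by a short spacer. Macrophages treated this way are called alternatively activated. They are known for arginase, resistin-like and chitinase-like secreted proteins and lectin receptors, whereas macrophages activated by IFN-γ and LPS are known for nitric oxide, inflammatory cytokines and antiviral genes.

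All 10 macrophage marker genes were above background on every one of the 11 arrays, among them Csf1r, the CSF1 receptor, Adgre1, which encodes F4/80, and Lyz2, a lysozyme. Their summed level ran from 547 to 992 times the array's 75th percentile on the IL-4 arrays and from 575 to 813 times on the untreated arrays. Csf1r (0.03 ± 0.24), Adgre1 (0.25 ± 0.20) and Lyz2 (0.32 ± 0.20) did not pass the test, while Cd14 and Fcgr1 of the same list fell, as described below. These and all later differences are log2 fold changes, IL-4 over untreated, ± standard error of the limma model, and a gene was called at a Benjamini-Hochberg adjusted p under 0.05. The summed level of neutrophil markers was 15.6 to 31.5 times the 75th percentile with IL-4 and 15.2 to 30.8 times untreated. For dendritic cell markers it was 0.593 to 1.02 times with IL-4 and 0.536 to 1.09 times untreated. Over all tested genes 11.3% were called, with 5.76% higher and 5.52% lower. Called members numbered 1 fall of 11 neutrophil markers (9.09%) and 2 falls of 9 dendritic cell markers (22.2%). The summed level of 7 eosinophil markers was 1.3 to 7.31 times with IL-4 and 0.351 to 0.597 times untreated. Its 1 called member of 6 tested was Ear1, while Prg2 (-0.50 ± 0.34), Siglecf (-0.09 ± 0.25) and Ccr3 (-0.37 ± 0.20), which define the cell, did not pass, and the part of other cells in these results was not tested. Megakaryocyte and platelet markers had 1 rise and 2 falls of 8 (37.5%), Ppbp among the falls, with sums of 52.4 to 71.5 times with IL-4 and 54.5 to 82.1 times untreated. T and NK cell markers had 1 fall of 9 (11.1%), B cell markers 1 of 8 (12.5%) and mast cell and basophil markers 2 of 11 (18.2%). No erythroid or fibroblast marker was called. Endothelial markers ran the other way in their sum (3.15 to 4.23 times with IL-4 and 4.94 to 6.61 times untreated). Pecam1 was higher (3.35 ± 0.41, above background on 5 of 7 untreated arrays) and Kdr lower (-2.78 ± 0.35). Pecam1 was not called with normexp, a method of background correction, whereas the main values were extracted with background correction off. The normexp setting started from the mean spot signal and added an offset of 50. It left out the extraction software's detrending and its substitute values for low spots. That setting therefore changes more than the background correction alone. The 75th percentile of the processed signal was 746 to 1618 intensity units on the IL-4 arrays and 1188 to 2113 on the untreated arrays, and 63.0% to 65.7% of gene probes with IL-4 and 65.2% to 78.7% untreated were well above background. Untreated array G stood apart from the other 6. It was the highest of the 7 for 34.8% of all tested genes and for 42.9% of the 569 genes that rose at least 2-fold, and without it 2417 genes were called in place of 2531. In such bulk samples fewer cells of a type and less RNA per cell cannot be told apart.

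Start-site sequences of genes with the largest changes are shown first, because STAT6 and the interferon factors are known for short motifs. RefSeq windows of 300 bases (mostly before the transcript start and ending just after it, build GRCm38.p6) were matched by symbol for 17 of the 25 genes with the largest rises by fitted value and 18 of the 25 with the largest falls. They were searched on both strands for TTCNNNNGAA, the spacing STAT6 is known to prefer, for TTCNNNGAA, the spacing of other STAT proteins, and for GAAANNGAAA, the core of the interferon-stimulated response element. Capitals mark the matches of the motif named for each gene. Retnla (chr16:48842359-48842658, plus strand) and Pdcd1lg2 (chr19:29410669-29410968, plus strand) rose and hold TTCNNNNGAA. Cish (chr9:107296409-107296708, plus strand) rose and holds TTCNNNGAA at its start. Cxcl10 (chr5:92348840-92349139, minus strand) and Ifit3 (chr19:34583279-34583578, plus strand) fell and hold GAAANNGAAA, in Ifit3 at a pair of places on the opposite strand. Each is written from 5′ to 3′ along its gene.
Retnla: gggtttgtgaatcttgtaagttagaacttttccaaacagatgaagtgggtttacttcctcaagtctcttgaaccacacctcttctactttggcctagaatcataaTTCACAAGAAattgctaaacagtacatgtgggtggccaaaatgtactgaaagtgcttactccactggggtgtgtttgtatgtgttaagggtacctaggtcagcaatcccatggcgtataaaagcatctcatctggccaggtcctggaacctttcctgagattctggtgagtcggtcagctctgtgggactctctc
Pdcd1lg2: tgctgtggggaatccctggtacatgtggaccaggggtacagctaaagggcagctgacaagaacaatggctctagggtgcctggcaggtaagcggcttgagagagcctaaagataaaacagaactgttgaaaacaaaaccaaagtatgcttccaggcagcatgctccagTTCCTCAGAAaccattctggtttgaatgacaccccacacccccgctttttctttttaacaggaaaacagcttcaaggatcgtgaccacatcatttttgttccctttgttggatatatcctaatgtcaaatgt
Cish: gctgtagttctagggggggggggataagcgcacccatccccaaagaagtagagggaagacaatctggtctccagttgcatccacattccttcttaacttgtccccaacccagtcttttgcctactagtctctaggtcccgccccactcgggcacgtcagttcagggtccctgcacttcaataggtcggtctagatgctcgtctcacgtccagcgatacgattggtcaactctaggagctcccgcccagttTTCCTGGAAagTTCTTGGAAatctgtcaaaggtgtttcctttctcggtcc
Cxcl10: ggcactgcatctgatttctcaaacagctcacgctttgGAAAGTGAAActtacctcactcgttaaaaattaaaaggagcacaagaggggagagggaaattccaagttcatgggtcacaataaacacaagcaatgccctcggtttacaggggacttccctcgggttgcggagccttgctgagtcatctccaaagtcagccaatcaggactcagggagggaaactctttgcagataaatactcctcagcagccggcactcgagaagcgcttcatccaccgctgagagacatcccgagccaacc
Ifit3: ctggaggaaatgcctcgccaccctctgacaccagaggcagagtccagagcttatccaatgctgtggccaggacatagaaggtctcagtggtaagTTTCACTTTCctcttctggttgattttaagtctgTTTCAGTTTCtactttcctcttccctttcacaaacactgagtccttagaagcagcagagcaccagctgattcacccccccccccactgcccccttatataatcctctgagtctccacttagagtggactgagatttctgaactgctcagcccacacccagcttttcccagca

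The first base of the match lies at -145 in Retnla, -82 in Pdcd1lg2 and -213 in Cxcl10, counted from the transcript start as 1. TTCNNNNGAA was also found for Edn1, Rbp4 and Tmem26 among the largest rises, and GAAANNGAAA for Pilra and Pilrb1 among the largest falls, whose windows share most of their letters. For single genes the TTC motifs were listed only among rises and GAAANNGAAA only among falls. The genes listed therefore cannot show a split of motifs by direction. Of the genes called at least 2-fold lower, 64 of 498 with a window (12.9%) held GAAANNGAAA, against 515 of 13549 tested genes (3.8%) and 3.44% of all 32851 windows. A gene was counted if any of its listed windows held the motif, so shares of genes and shares of windows are unlike measures. Among genes called at least 2-fold higher the share was 4% (16 of 400). TTCNNNNGAA was held by 8.75% of the genes called at least 2-fold higher (35 of 400), 7.03% of those lower (35 of 498), 6.88% of tested genes (932) and 6.95% of all windows. For TTCNNNGAA these shares were 8.5%, 10%, 8.71% and 8.3%. A match describes letters in the window and says nothing of binding.

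Of 22446 genes tested, 2531 differed between IL-4 and untreated macrophages (11.3% of those tested), 1292 higher (5.76%) and 1239 lower (5.52%) with IL-4. Changes of at least 2-fold made up 44% of the rises (569 genes) and 66.9% of the falls, and the median difference over all tested genes was 0.01. The 4 IL-4 arrays lay outside the range of the 7 untreated arrays for 1048 of the genes called higher and 992 of those called lower. Among all tested genes, called or not, the IL-4 arrays lay wholly above the untreated ones for 1477 (6.58%) and wholly below them for 1369 (6.1%).

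Retnla encodes a secreted resistin-like protein of helminth infection and allergy. Its level, as log2 signal minus the array's 75th percentile, was 7.65, 7.64, 8.10 and 7.52 on IL-4 arrays A, B, C and G. It lay between -9.43 and -6.60 (median -8.54) on the untreated arrays, none of which was well above background, so the fold is a bound. Retnla was at least 19572-fold higher with IL-4 (limma adjusted p = 1.12e-17), where each untreated array entered with the higher of the gene's own signal and the lowest signal among all its probes well above background. Arg1, the arginase that turns arginine into ornithine and urea, had 3.33, 4.58, 3.87 and 5.45 with IL-4. It lay between -7.44 and -4.61 (median -6.58) untreated, where 4 of 7 arrays measured it above background, and rose by 10.82 ± 0.55 (limma adjusted p = 5.58e-13). Both genes separated the groups by more than the whole spread within either. The macrophage lectin gene Mgl2 had 4.90, 5.34, 5.72 and 5.75 with IL-4 and lay between -1.83 and -0.74 (median -1.29) untreated, a rise of 6.71 ± 0.30 (limma adjusted p = 5.70e-14), again without overlap. The plot of levels by array shows these 3 genes with 9 others described below.

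**Figure D1:**
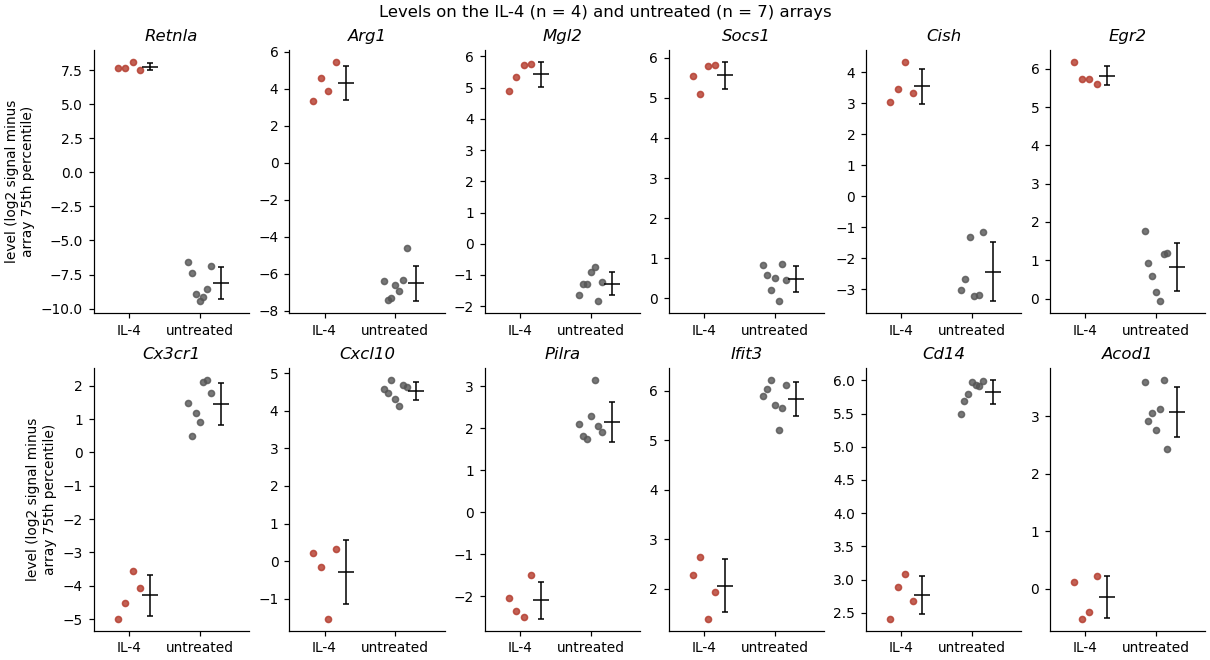
Level of 12 genes on each array (y axis, log2 processed signal minus the array's 75th percentile), IL-4 arrays left and untreated arrays right, with the mean and SD as a bar beside the points. Each gene has its own y axis, Cish has 6 untreated points because 1 spot was an outlier, and in none of the 12 genes do the groups overlap.

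Alternative activation effectors rose as a group, with 28 of 45 tested members higher and 3 lower. Their median difference was 1.99. The list holds genes known for this response, some of which were in view from earlier results of these arrays, so its direction is no independent evidence. Besides the genes above, the water channel gene Aqp3 (8.06 ± 0.40) and Pdcd1lg2, which encodes a ligand of the T cell receptor PD-1, (6.50 ± 0.55, above background on 4 of 7 untreated arrays) rose. Rnase2a (8.66 ± 0.49), Ear10 (7.15 ± 0.58), Ear1 (6.52 ± 0.49), Ear6 (6.36 ± 0.50) and Ear3 (6.22 ± 0.53), all ribonuclease genes of the eosinophil-associated family, rose together. Their transcripts are near-identical, so a probe can read several of them and their separate values are uncertain, and the 4 Ear genes were above background on 4 or 5 of the 7 untreated arrays. Falls in the list were in Tgm2, a transglutaminase (-1.65 ± 0.21), Ppbp, a chemokine of platelets (-1.21 ± 0.27), and Il1rn, the IL-1 receptor antagonist (-1.21 ± 0.34). Il1rn was not called without IL-4 array A (-1.09, limma adjusted p = 0.0804) or G (-1.15, limma adjusted p = 0.0663), nor with normexp background correction, which also lost Ppbp. The lipid receptor gene Cd36 (0.41 ± 0.20) and the scavenger receptor gene Msr1 (-0.33 ± 0.23) did not pass.

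Other genes among the 25 largest rises were members of other lists or of none. Edn1, the precursor of the vasoconstrictor endothelin-1, had -0.53, -0.36, -0.53 and -0.18 with IL-4 and lay between -7.74 and -5.28 (median -7.27) untreated, where 2 of 7 arrays measured it above background (6.65 ± 0.37). Rbp4, a retinol carrier of plasma (6.23 ± 0.53, above background on 2 of 7 untreated arrays), Tmem26, a membrane protein (6.48 ± 0.33, 6 of 7), Mboat2, a lysophospholipid acyltransferase (5.61 ± 0.54, 4 of 7), and Msx3, a homeobox factor (6.32 ± 0.70), rose too. Il4i1, a secreted amino acid oxidase first named for its induction by IL-4, rose by 5.49 ± 0.34. The sodium channel gene Scn3a was at least 32-fold higher (limma adjusted p = 1.33e-09) and Scn1a rose by 5.80 ± 0.49, with 1 of 7 untreated arrays above background. With normexp background correction Scn3a and Scn1a were not called.

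Among IL-4 receptor chains, kinases, STAT6 and their inhibitors, the largest changes were rises of SOCS-family genes and a fall of 1 receptor chain. Of 16 members tested, 4 rose and 4 fell. Il4ra, the IL-4-binding chain, had 2.06, 2.66, 3.09 and 2.44 with IL-4 and lay between 2.25 and 3.56 (median 2.58) untreated. The groups overlapped, and the difference of -0.13 ± 0.32 did not pass the test (limma adjusted p = 0.88, 95% interval, not adjusted for the number of genes, -0.79 to 0.53). Stat6 did not pass either (-0.21 ± 0.14, limma adjusted p = 0.446, 95% interval -0.51 to 0.09). Il13ra1, the alternative second chain, fell to -3.67, -4.79, -4.70 and -4.82 with IL-4, against a range of -2.05 to -1.30 (median -1.83) untreated, without overlap (-2.71 ± 0.28, limma adjusted p = 1.09e-07). Il2rg, the common γ chain, fell by a smaller amount (-0.85 ± 0.22). Of the kinases Jak2 rose (0.95 ± 0.22), Jak3, which binds the common γ chain, fell (-0.92 ± 0.20), and Jak1 (0.41 ± 0.19) and Tyk2 (-0.16 ± 0.23) did not pass. The phosphatase gene Ptpn6 fell (-0.76 ± 0.17), while Ptpn1 (0.31 ± 0.23), Ptpn11 (0.47 ± 0.19) and the SUMO ligase gene Pias1 (-0.04 ± 0.12) did not pass.

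SOCS-family genes encode inhibitors that block cytokine receptors, and 3 of 4 rose. Socs1 had 5.53, 5.10, 5.80 and 5.81 with IL-4 and lay between -0.06 and 0.87 (median 0.52) untreated (5.07 ± 0.22, limma adjusted p = 4.71e-14). Cish had 3.05, 3.45, 4.33 and 3.32 with IL-4 and lay between -3.21 and -1.16 (median -2.86) on the 6 untreated arrays whose spot was no outlier (5.97 ± 0.60, limma adjusted p = 1.23e-07). Neither gene's groups overlapped. Socs2 rose by 3.31 ± 0.40, and Socs3, an inhibitor of IL-6 family signals, did not pass (-0.41 ± 0.30). Il2rg was not called without IL-4 array G (-0.73, limma adjusted p = 0.0654). With normexp background correction Il2rg, Jak2, Jak3 and Ptpn6 were not called, and with median scaling, where arrays are aligned on their median instead, Il2rg, Jak3 and Ptpn6 were not. Ptpn6 was also lost with the mean over its probes.

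Among transcription factors linked to IL-4, 14 of 47 rose and 3 fell, with a median difference of 0.2. Egr2, an early growth response zinc finger factor, had 6.18, 5.74, 5.73 and 5.61 with IL-4 and lay between -0.06 and 1.77 (median 0.94) untreated (4.99 ± 0.34, limma adjusted p = 9.39e-11), without overlap. Batf3, a partner of interferon regulatory factors (4.19 ± 0.29), Bhlhe40, a helix-loop-helix repressor (4.01 ± 0.32), Irf4, a factor of the IL-4 response in macrophages (3.62 ± 0.34), Nfil3 (3.17 ± 0.37) and Klf4 (2.88 ± 0.30) followed. Pparg, the nuclear receptor for fatty acids, rose by 1.32 ± 0.19, and its coactivator gene Ppargc1b rose by 2.40 ± 0.38. Maf, a factor of macrophage identity, fell by 1.18 ± 0.27 on the log2 scale. The other 2 falls, Bhlhe41 (-1.20 ± 0.33) and Bcl6 (-0.54 ± 0.17), were both lost without IL-4 array B or G, which left 1 fall. Bcl6 was lost without IL-4 array A or C or untreated array A, B, D, F or G too (limma adjusted p = 0.0523 to 0.0894), and without untreated array E 5 falls were called. Junb (0.36 ± 0.17), Klf2 (-0.08 ± 0.42) and Klf6 (-0.16 ± 0.14) did not pass, though Klf6 was called with quantile normalization (-0.42, limma adjusted p = 0.0208).

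Interferon-stimulated genes fell together. In the type I interferon and antiviral list 0 rose and 36 fell of 45 tested, with a median of -1.34. For 37 of the 45, called or not, every IL-4 array lay below every untreated array, which held for 6.1% of all tested genes. Ifit3, which binds foreign RNA with its relatives, fell to 2.28, 2.63, 1.39 and 1.94 with IL-4, against a range of 5.21 to 6.22 (median 5.89) untreated (-3.77 ± 0.24, limma adjusted p = 3.34e-11). Isg20, an RNA exonuclease (-3.03 ± 0.20), Rsad2, which encodes viperin (-3.14 ± 0.22), and Cmpk2, a nucleotide kinase (-2.79 ± 0.26), fell, as did Ifit1 (-3.13 ± 0.24) and Ifit2 (-3.18 ± 0.22). Members that did not pass included Irf1 (0.24 ± 0.20) and the tether of budding viruses, Bst2 (-0.41 ± 0.14). Bst2 was called with a block for slide (-0.52, limma adjusted p = 0.021) or for scan day (-0.49, limma adjusted p = 0.012), with quantile normalization (-0.69, limma adjusted p = 0.0017) and without IL-4 array B (-0.53, limma adjusted p = 0.0282). Of 16 GTPase genes induced by IFN-γ against intracellular microbes, 14 fell and 0 rose, with a median of -1.53. Igtp had 3.66, 3.91, 3.39 and 3.48 with IL-4 and lay between 4.99 and 5.40 (median 5.22) untreated (-1.59 ± 0.15, limma adjusted p = 1.99e-08), and Gbp6 (-2.36 ± 0.29), Tgtp1 (-2.11 ± 0.18), Iigp1 (-2.01 ± 0.32) and Irgm2 (-1.70 ± 0.20) fell with it. MHC class I genes had 0 rises and 1 fall among 17 tested (5.88% called, beside 11.3% over all genes), with a median of 0.07. The fall was in the peptide transporter gene Tap1 (-0.88 ± 0.20), which was not called with median scaling, and the class I chains H2-K1 (0.12 ± 0.14), H2-D1 (-0.01 ± 0.18) and B2m (0.03 ± 0.15) did not pass. Without untreated array A or B 1 class I gene was called higher.

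**Figure D2:**
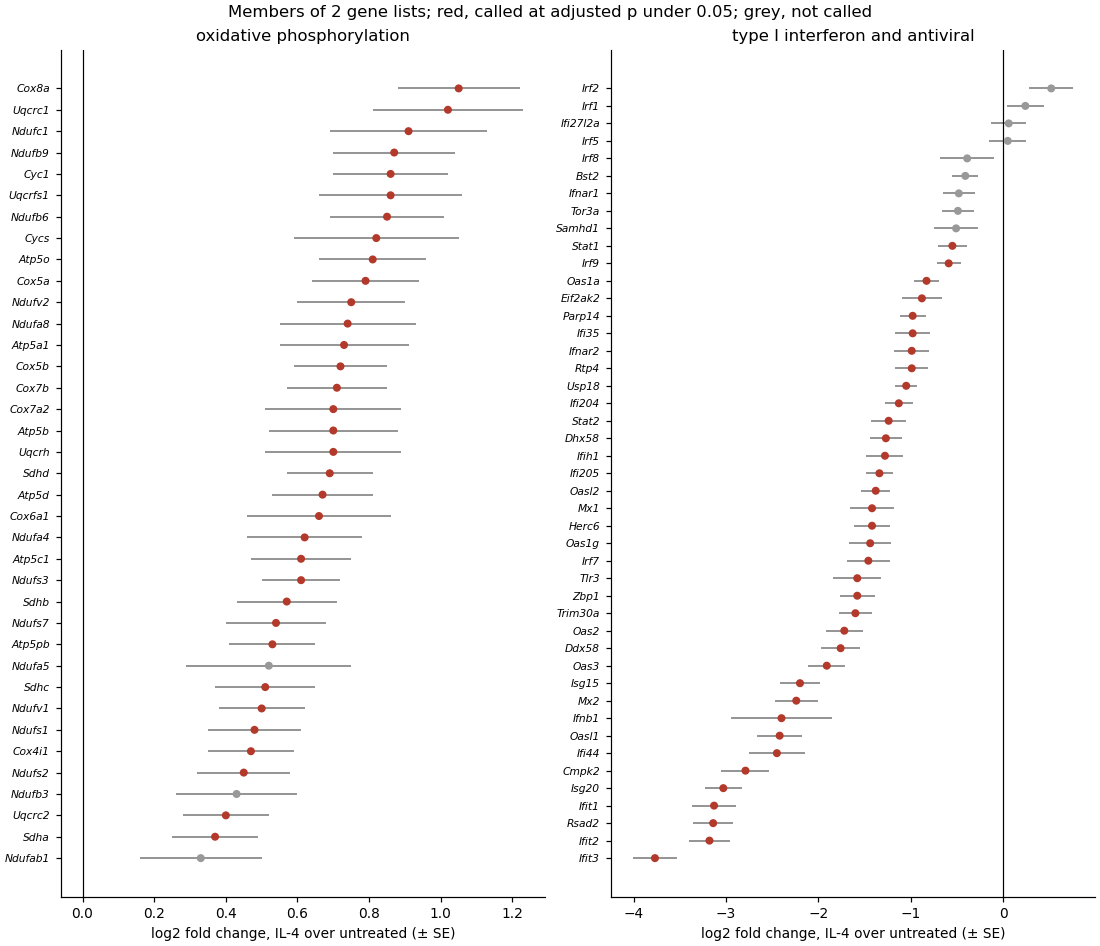
Log2 fold change with its standard error (x axis, IL-4 over untreated) for each tested member of the oxidative phosphorylation list (left, 37 genes) and the type I interferon and antiviral list (right, 45 genes). Red points passed at adjusted p under 0.05 and grey points did not: 34 of the 37 on the left rose and 36 of the 45 on the right fell.

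MHC class II genes mostly rose, with 9 rises and 2 falls among 16 tested and a median of 0.7. Ciita, the master activator of class II genes, had 2.54, 2.29, 2.30 and 1.14 with IL-4 and lay between -1.88 and 0.83 (median -0.28) untreated (2.48 ± 0.40, limma adjusted p = 7.41e-05). The lowest IL-4 array was above the highest untreated array. Cd74, the invariant chain (1.41 ± 0.24), and the peptide exchange genes H2-DMa (2.05 ± 0.24), H2-DMb1 (1.73 ± 0.19) and H2-DMb2 (1.70 ± 0.22) rose. The last 2 are close copies, so their values may share signal. The falls were in H2-Oa (-1.17 ± 0.33) and H2-Ob (-0.85 ± 0.27), the chains of the inhibitor of that exchange. Neither fall was stable, since H2-Oa was lost without IL-4 array B (-1.07, limma adjusted p = 0.0706) or G (-0.99, limma adjusted p = 0.0929). H2-Ob, above background on 3 of 4 IL-4 arrays, was lost without any 1 of the 4 IL-4 arrays (-0.89 to -0.74) or untreated array C, E or G (limma adjusted p = 0.051 to 0.0829) and turned to 0.09 with normexp background correction. The number of rises was 5 without IL-4 array C and 5 with normexp background correction. Of costimulatory and coinhibitory genes 5 rose and 5 fell of 23, with 3 falls without IL-4 array B. The inhibitory receptor gene Cd200r1 rose (1.45 ± 0.25), Lgals9, which encodes galectin-9, fell (-1.31 ± 0.25), and the phagocytosis checkpoint genes Cd47 (-0.36 ± 0.14) and Sirpa (-0.03 ± 0.20) did not pass. Cd47 was called with a block for slide (-0.41, limma adjusted p = 0.0115) or for scan day (-0.40, limma adjusted p = 0.0076), with quantile normalization (-0.63, limma adjusted p = 0.00794) and with the mean over its probes (-0.52, limma adjusted p = 0.0155).

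Surface receptors that sense microbes or sugars changed in both directions, within families as well. C-type lectin genes had 7 rises and 7 falls among 22, a share of 63.6% called beside 11.3% over all genes. Besides Mgl2, the β-glucan receptor gene Clec7a (3.37 ± 0.39), the galactose-type lectin gene Clec10a (2.38 ± 0.35) and the mannose receptor gene Mrc1 (1.72 ± 0.24) rose. Clec4e (-3.28 ± 0.26) and Clec4d (-2.01 ± 0.19), whose products bind mycobacterial glycolipids, fell, and so did Cd69 (-2.67 ± 0.31). CD300, PILR and TREM receptor genes, paired activating and inhibitory receptors of myeloid cells, had 11 falls and 2 rises among 24, with 1 rise without IL-4 array C or G or untreated array D. Pilra, the inhibitory one of its pair, fell to -2.03, -2.36, -2.49 and -1.50 with IL-4, against a range of 1.74 to 3.16 (median 2.07) untreated (-4.26 ± 0.28, limma adjusted p = 4.35e-11). The activating partners Pilrb1 (-4.47 ± 0.22) and Pilrb2 (-3.40 ± 0.22), which are close copies, fell as well, with Cd300e (-4.42 ± 0.32) and Treml4 (-3.45 ± 0.35). Trem2 (0.16 ± 0.17) and its adaptor gene Tyrobp (0.12 ± 0.14) did not pass. Of 9 Fc receptor genes 3 rose and 2 fell, or 1 without IL-4 array G. The inhibitory Fcgr2b (1.91 ± 0.23) and the activating Fcgr3 (0.99 ± 0.15) rose, while the high-affinity receptor gene Fcgr1 (-1.69 ± 0.21) fell. Toll-like receptors and their helpers had 0 rises and 10 falls among 27. Cd14, the LPS co-receptor, fell to 2.41, 2.89, 3.09 and 2.68 with IL-4, against a range of 5.50 to 5.99 (median 5.91) untreated (-3.06 ± 0.18, limma adjusted p = 6.27e-12), without overlap. Tlr2 (-2.89 ± 0.23) and Cd180 (-1.52 ± 0.31) fell, and Ly96, the other LPS co-receptor, did not pass (0.17 ± 0.23). The number of falls in that list ran down to 6 without IL-4 array G, and was 3 with normexp background correction and 6 with median scaling.

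**Figure D3:**
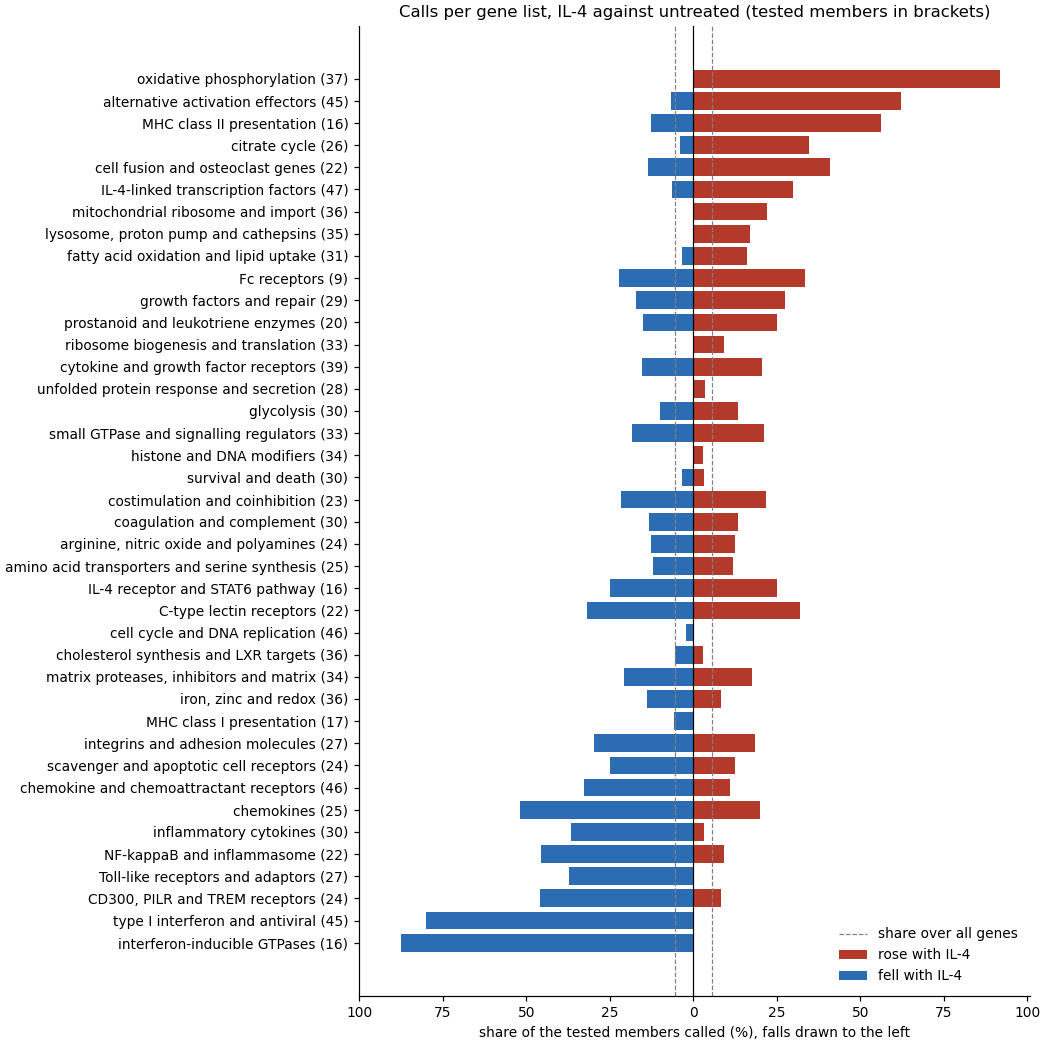
Share of tested members called per gene list (x axis, %), rises with IL-4 drawn to the right and falls to the left, with the number of tested members in brackets and dashed lines at the shares over all tested genes (5.76% higher, 5.52% lower). Oxidative phosphorylation (34 of 37 higher) stands at one end and the interferon-inducible GTPases (14 of 16 lower) at the other.

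Most chemokine genes fell, and more cytokine and NF-κB genes fell than rose. Of 25 chemokine genes 13 fell and 5 rose. Cxcl10, which draws T cells through CXCR3, fell to 0.21, -0.15, -1.53 and 0.33 with IL-4, against a range of 4.13 to 4.82 (median 4.57) untreated (-4.80 ± 0.24, limma adjusted p = 5.07e-13). Cxcl11, another CXCR3 ligand, was at least 4.71-fold lower (limma adjusted p = 2.63e-09), since no IL-4 array measured it above background. The neutrophil attractant genes Cxcl1 (at least 5.03-fold lower, limma adjusted p = 1.35e-06) and Cxcl2 (-4.05 ± 0.45, above background on 1 of 4 IL-4 arrays) fell too. Ccl24, an eotaxin that draws eosinophils, had 1.41, 2.25, 3.29 and 1.29 with IL-4 and lay between -5.13 and -1.82 (median -4.26) untreated (6.10 ± 0.57, limma adjusted p = 2.29e-08). Ccl8 (4.42 ± 0.33) and Ccl7 (3.01 ± 0.69), attractants of monocytes, rose with it, while Ccl2 (1.77 ± 0.70, 95% interval 0.32 to 3.22) and Ccl17 (1.13 ± 0.45, 95% interval 0.21 to 2.05) did not pass. Ccl2 was called without IL-4 array C (2.46, limma adjusted p = 0.0275). It was also called with scan day as a block (1.86, limma adjusted p = 0.0203), and Ccl17 with quantile normalization (1.27, limma adjusted p = 0.0354). Ccl7 was not called when only the 2 groups entered the fit. Cytokine genes had 11 falls and 1 rise among 30, with Tnf (-2.49 ± 0.36) and Il1b (-2.23 ± 0.53, above background on 3 of 4 IL-4 arrays) lower. The rise was in Il6, at least 1.43-fold (limma adjusted p = 0.013), above background on 2 of 4 IL-4 arrays and on no untreated array, with the groups overlapping. It was not called without IL-4 array B (1.67, limma adjusted p = 0.087) or C (1.77, limma adjusted p = 0.0717). In the NF-κB and inflammasome list 10 fell and 2 rose of 22, with 1 rise without any 1 of the 4 IL-4 arrays or untreated array B or E. Nfkbiz, a nuclear regulator of NF-κB (-3.40 ± 0.33), Nod2, a sensor of bacterial cell walls (-1.82 ± 0.19), and Relb, an NF-κB subunit (-1.46 ± 0.18), fell, whereas Nfkb1 (0.01 ± 0.24) and Rela (-0.16 ± 0.19) did not pass. With normexp background correction Cxcl11, Cxcl1, Cxcl2, Il1b and Il6 were not called, and the falls numbered 6 chemokine, 5 cytokine and 5 NF-κB genes.

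Receptors for chemoattractants and cytokines changed in both directions. Cx3cr1, the receptor for fractalkine, fell and lay at -4.99, -4.51, -3.55 and -4.07 with IL-4 and 0.49 to 2.18 (median 1.47) untreated (-5.72 ± 0.46, limma adjusted p = 1.82e-09). Chemoattractant receptor genes had 15 falls and 5 rises among 46. The fatty acid receptor gene Gpr84 (-4.48 ± 0.32) and the formyl peptide receptor genes Fpr2 (-3.87 ± 0.35), both above background on 2 of 4 IL-4 arrays, and Fpr1 (-2.82 ± 0.36) fell. The leukotriene B4 receptor gene Ltb4r1 (3.05 ± 0.31), the ADP receptor gene P2ry1 (2.91 ± 0.32) and the adenosine receptor gene Adora2b (2.17 ± 0.48) rose. Cytokine and growth factor receptors had 8 rises and 6 falls among 39. Flt1, the VEGF receptor 1, had 5.87, 5.90, 5.99 and 5.60 with IL-4 and lay between -0.56 and 0.83 (median 0.47) untreated (5.64 ± 0.33, limma adjusted p = 5.67e-12). Il1r1 (3.79 ± 0.42), Il27ra (2.07 ± 0.19) and Csf2rb, the shared chain of the GM-CSF and IL-3 receptors (1.70 ± 0.23), rose, and Tgfbr1 (-1.90 ± 0.32) fell. With normexp background correction Fpr1 and Fpr2 were not called.

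Cell fusion genes rose more often than they fell, and adhesion and matrix genes changed in both directions. IL-4 is known to make macrophages fuse into giant cells, and 9 of 22 fusion and osteoclast genes rose while 3 fell. Ocstamp, a membrane protein needed for fusion, had 3.88, 3.25, 2.84 and 3.32 with IL-4 and lay between -5.09 and -2.58 (median -3.91) untreated (7.19 ± 0.39, limma adjusted p = 2.16e-12). Its relative Dcstamp (2.76 ± 0.37), the proton pump subunit gene Atp6v0d2 (3.27 ± 0.29) and Cdh1, which encodes E-cadherin (5.48 ± 0.44, above background on 6 of 7 untreated arrays), rose with no IL-4 array inside the untreated range. The falls numbered 1 without IL-4 array C. Fn1, the matrix protein fibronectin, had -0.40, 0.18, 2.08 and -0.35 with IL-4 and lay between -7.01 and -4.07 (median -5.67) untreated, where 5 of 7 arrays measured it above background (6.11 ± 0.50). Matrix and protease genes as a list had 6 rises and 7 falls among 34, with Mmp14, a membrane collagenase (-3.51 ± 0.33), and Spp1, osteopontin (-1.38 ± 0.17), lower. Of 27 integrin and adhesion genes 5 rose and 8 fell, or 5 without IL-4 array B. The vitronectin receptor chain gene Itgb3 (1.99 ± 0.38) rose, and the chains Itgal (-2.21 ± 0.33), Itga6 (-2.23 ± 0.29) and Itga4 (-1.42 ± 0.28) fell. Clotting factor genes F10 (4.44 ± 0.35) and F7 (3.16 ± 0.24) rose, as did F3, the tissue factor that starts clotting (2.69 ± 0.52). F3 was measured above background on 5 of 7 untreated arrays and was lost with normexp background correction. Among growth and repair factors Hbegf (3.44 ± 0.42), Pdgfa (1.77 ± 0.28) and Igf1 (1.62 ± 0.20) rose, and 8 of 29 rose in all against 5 that fell.

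Nearly every gene of oxidative phosphorylation was higher by a small amount. Of 37 subunits of the respiratory chain and ATP synthase 34 rose and 0 fell, with a median of 0.69 against 0.01 over all genes. For 33 of them every IL-4 array lay above every untreated array, which held for 6.58% of all tested genes. Cyc1, cytochrome c1 of complex III, had 3.92, 4.47, 4.37 and 4.22 with IL-4 and lay between 3.07 and 3.70 (median 3.36) untreated (0.86 ± 0.16, limma adjusted p = 4.15e-04). Cox8a of complex IV (1.05 ± 0.17) and Uqcrc1 of complex III (1.02 ± 0.21) had the largest differences, though the first was not called with normexp background correction and the second with median scaling. The direction was shared by 37 of 37 members with quantile normalization (median 0.46), median scaling (0.77) and normexp background correction (0.62, beside 0.24 over all genes). The number called was lower, at 23, 8 and 3 in these settings, and 18 with only experiments A, B, C and G of every group in the fit. In the citrate cycle list 9 rose and 1 fell of 26, but none was called higher with median scaling. The fall was in Acod1, which diverts the cycle to itaconate, at 0.11, -0.52, -0.40 and 0.22 with IL-4 and 2.42 to 3.63 (median 3.06) untreated (-3.22 ± 0.19, limma adjusted p = 1.06e-11). Mitochondrial ribosome and import genes had 8 rises and 0 falls among 36. That count ran down to 4 without IL-4 array G and was 2 with median scaling. Fatty acid oxidation genes had 5 rises and 1 fall (0 without IL-4 array C) among 31, or 19.4% called beside 11.3% over all genes. The fatty acid carrier gene Fabp4 was higher (1.51 ± 0.25). Glycolysis had 4 rises and 3 falls among 30, with 0 falls without IL-4 array C and 1 without B or G. The lactate transporter gene Slc16a1 rose (1.42 ± 0.34), and the enzyme genes Aldoa (0.29 ± 0.17), Gpi1 (0.44 ± 0.18) and Ldha (0.20 ± 0.20) did not pass.

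Single steps of other pathways changed by larger amounts. The arginine, nitric oxide and polyamine list had 3 rises and 3 falls among 24 (25% called, beside 11.3% over all genes). Slc7a2, the transporter that brings arginine into the cell, rose with Arg1 (5.01 ± 0.46, above background on 5 of 7 untreated arrays). Odc1 (0.43 ± 0.33) and Sms (0.36 ± 0.21) of polyamine synthesis did not pass. Ptgs1, the constitutive cyclooxygenase, had 4.68, 3.78, 4.05 and 4.15 with IL-4 and lay between -0.73 and 1.16 (median -0.08) untreated (4.19 ± 0.44, limma adjusted p = 1.81e-07). Tbxas1, thromboxane synthase, rose (1.17 ± 0.17) and Hpgds, a prostaglandin D2 synthase, fell (-1.65 ± 0.25). Tfrc, the transferrin receptor for iron uptake, had 2.74, 2.70, 3.15 and 2.22 with IL-4 and lay between -0.69 and 0.27 (median 0.09) untreated (2.80 ± 0.27, limma adjusted p = 3.37e-08). The iron exporter gene Slc40a1 (-2.46 ± 0.38) and Cybb, the catalytic subunit of the phagocyte oxidase (-1.26 ± 0.24), fell, and the ferritin genes Ftl1 (0.42 ± 0.25) and Fth1 (0.35 ± 0.19) did not pass. Slc40a1 was not called with normexp background correction. The cholesterol exporter genes moved apart, Abca1 lower (-1.81 ± 0.32) and Abcg1 higher (0.90 ± 0.17, lost with normexp background correction). Of 35 lysosome genes 6 rose and 0 fell (17.1% called), among them the proton pump subunit gene Atp6v0a1 (1.48 ± 0.22). The cathepsin genes Ctsb (0.21 ± 0.17), Ctsd (-0.22 ± 0.13) and Ctsl (0.33 ± 0.16) did not pass.

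Scavenger and apoptotic cell receptor genes had 3 rises and 6 falls among 24, with 3 falls without IL-4 array G and 5 rises without untreated array G. Cxcl16, a membrane-bound chemokine that also takes up oxidised lipoprotein (-2.21 ± 0.23), Axl, a receptor for apoptotic cells (-1.43 ± 0.20), and Lrp1, a large endocytic receptor (-1.16 ± 0.19), fell. Of 30 coagulation and complement genes 4 rose and 4 fell (26.7% called), the falls including Cfb (-1.39 ± 0.29), an activator of the alternative complement pathway. Small GTPases and signalling regulators had 7 rises and 6 falls among 33. The adaptor gene Dok2 (1.99 ± 0.28), the phosphatase gene Dusp4 (2.29 ± 0.42) and the GTPase genes Arl4c (1.51 ± 0.30) and Rhoc (1.12 ± 0.16) rose. Cholesterol synthesis and LXR target genes had 1 rise and 2 falls among 36 (4 falls without IL-4 array C). That was 8.33% called, beside 11.3% over all genes, and the apolipoprotein gene Apoc2 was 1 of the falls (-2.25 ± 0.50). Amino acid transport and serine synthesis genes had 3 rises and 3 falls among 25 (24% called), with the exporter chain gene Slc7a7 lower (-1.26 ± 0.22).

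Few genes were called in the lists for growth and stress. Of 46 cell cycle genes 0 rose and 1 fell, with a median of 0.02. The fall was in the D-type cyclin gene Ccnd2 (-2.04 ± 0.41), while Pcna (0.56 ± 0.29, 95% interval -0.04 to 1.16) did not pass. In the unfolded protein response list 1 of 28 rose, the disulfide isomerase gene Pdia4 (1.63 ± 0.30), and the chaperone gene Hspa5 did not pass (0.02 ± 0.16). In the survival and death list the caspase gene Casp6 rose (2.74 ± 0.23), and the death-promoting gene Bmf fell (-1.55 ± 0.47) among 30. The 1 call among 34 histone and DNA modifiers was a rise of the DNA demethylase gene Tet2 (1.06 ± 0.32). Bmf was not called without IL-4 array A, B or G or untreated array C or G, and Tet2 was not without IL-4 array A, B or C or untreated array C, D or F. Without untreated array F 1 cell cycle gene was called higher, without untreated array E or F 2 survival and death genes were called lower, and without untreated array B or E 2 unfolded protein response genes were called higher. These 4 lists had between 2.17% and 6.67% of their members called, beside 11.3% over all genes.

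The IL-4 change was then compared in cells that also received LPS, on arrays that share none with the main comparison. IL-4 with LPS differed from LPS alone in 2011 genes (8.96% of those tested, 4.37% higher and 4.59% lower). The difference between the IL-4 changes without and with LPS passed the interaction test for 356 genes (1.59%), of which 248 were also called for IL-4 alone. The IL-4 change was more positive without LPS for 91 of these and more negative for 157. Retnla was at least 15552-fold higher with IL-4 and LPS than with LPS, Mgl2 rose by 6.86 ± 0.30 and Ccl24 by 7.84 ± 0.57, and neither Mgl2 nor Ccl24 passed the interaction test. Ccl24 passed it with a block for slide (-1.61, limma adjusted p = 0.00883) or for scan day (-1.74, limma adjusted p = 0.0126). For Retnla no interaction was read, since no array without IL-4 measured it above background. Alternative activation effectors had 27 rises and 2 falls among 45 in the presence of LPS, and 4 of the 45 passed the interaction test (11 with scan day as a block, 9 with slide as a block, 7 with quantile normalization and 2 with normexp background correction). MHC class II genes had 9 rises and 0 falls among 16 there, a count that held with any 1 array left out, and none passed the interaction test (2 did with a block for slide and 1 with a block for scan day). Socs1 averaged 6.71 ± 0.23 with IL-4 and LPS (SD, n = 4) and 6.15 ± 0.48 with LPS alone (SD, n = 7), so that its IL-4 change was 0.56 ± 0.22 there, against 5.07 ± 0.22 without LPS (difference 4.51 ± 0.31, limma adjusted p = 3.60e-09). Edn1 differed likewise (0.70 ± 0.37 with LPS, difference 5.95 ± 0.53, limma adjusted p = 1.92e-07). Ocstamp (3.74 ± 0.39 with LPS, difference 3.45 ± 0.56) and Il4i1 (2.21 ± 0.34 with LPS, difference 3.28 ± 0.48) rose in both settings by unequal amounts. The lipid-activated exchange factor gene Rasgrp1 (3.93 ± 0.35 without and 0.58 ± 0.35 with LPS) and Tarm1, an activating myeloid receptor (5.06 ± 0.39 without and 1.72 ± 0.39 with LPS), passed the interaction test too, with differences of 3.35 ± 0.49 and 3.34 ± 0.55. With slide as a block Edn1 (0.87, limma adjusted p = 0.0105) and Rasgrp1 (0.68, limma adjusted p = 0.0232) were called higher with LPS as well. Adora2b differed by 3.26 ± 0.68, with 2.17 ± 0.48 without and -1.09 ± 0.48 with LPS, and without IL-4 and LPS array B it was called lower with LPS (-1.57, limma adjusted p = 0.049).

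Chemokine and interferon-stimulated genes that fell with IL-4 alone were compared in the same way. Cxcl10 averaged 8.09 ± 0.34 with IL-4 and LPS (SD, n = 4) and 8.32 ± 0.15 with LPS alone (SD, n = 7), a difference of -0.23 ± 0.24 that did not pass (limma adjusted p = 0.731). Against its fall of 4.80 ± 0.24 without LPS the interaction was -4.58 ± 0.34 (limma adjusted p = 1.37e-08). Cxcl2 (0.06 ± 0.45) and Fpr2 (-0.40 ± 0.35) did not pass with LPS either, and their interactions were -4.11 ± 0.64 and -3.47 ± 0.50. In the type I interferon and antiviral list 6 of 45 fell and 1 rose in the presence of LPS, and 20 of 45 passed the interaction test (5 with normexp background correction and 7 with median scaling). The falls with LPS numbered 2 with normexp background correction, 3 with median scaling, 12 with a block for slide, 13 with a block for scan day, 10 with the filter of all arrays of a group above background, and 4 when only the groups compared entered the fit. They were 4 without IL-4 and LPS array B or G and 11 without LPS array C. For oxidative phosphorylation 15 of 37 rose with LPS (median 0.45) and 0 passed the interaction test. Those 15 rises were 0 with normexp background correction or median scaling, 4 when only the groups compared entered the fit, 5 with the experiment letter as a block, and 7 to 9 without 1 of the IL-4 and LPS arrays A, C and G or LPS array G. Mylk, a myosin kinase (-2.59 ± 0.33 without and 1.35 ± 0.33 with LPS), and Mex3b, an RNA-binding protein (-2.12 ± 0.33 without and 1.48 ± 0.33 with LPS), moved in opposite directions. Neither was called with LPS under normexp background correction (0.83 for Mylk, limma adjusted p = 0.766, and 0.62 for Mex3b, limma adjusted p = 0.963), and the fall of Mylk without LPS was lost (-0.90, limma adjusted p = 0.636). With the mean over its probes Mex3b was not called with LPS (0.91, limma adjusted p = 0.054). Mylk was not called with LPS without IL-4 and LPS array C (0.99, limma adjusted p = 0.0709). With normexp background correction Socs1, Il4i1 and Cxcl10 kept their interaction call and the other named genes lost it. All 356 calls had their direction within each of the 2 slides and each of the 3 scan days that hold all 4 groups, on the arrays that made the calls.

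**Figure D4:**
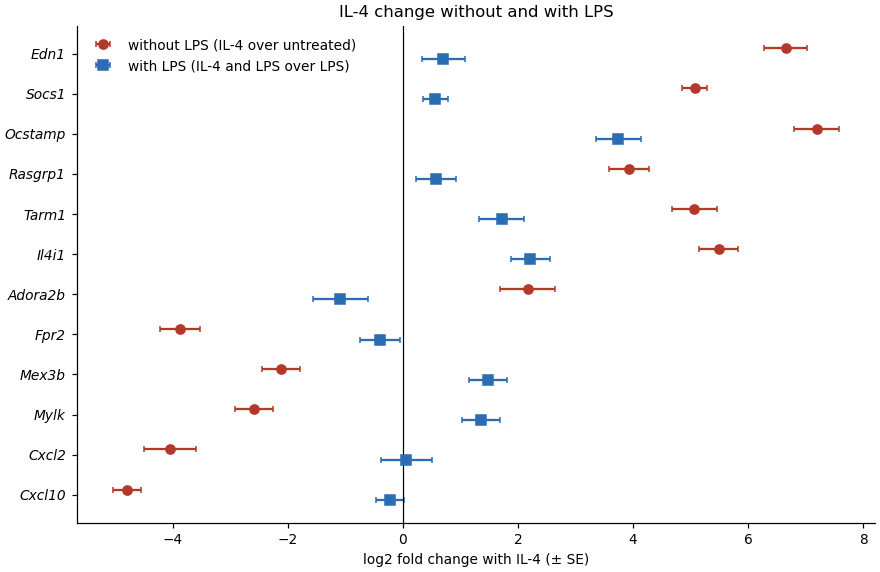
Log2 fold change with IL-4 and its standard error (x axis) for 12 genes that passed the interaction test, without LPS (red circles, IL-4 over untreated) and with LPS (blue squares, IL-4 and LPS over LPS). For Socs1 and Cxcl10 the blue square lies near 0, and for Mylk and Mex3b the 2 symbols lie on opposite sides of 0.

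IL-4 was also set directly against IFN-γ, the other priming cytokine. The untreated arrays enter no mean of this comparison but share the model's estimate of the spread, and with only the 2 groups in the fit 4971 genes were called. They differed in 6260 of 22445 genes (27.9%, 14.9% higher and 13% lower with IL-4), and over all genes the median difference, IL-4 minus IFN-γ, was 0.30. Of the calls 53.3% were higher with IL-4, but 27.6% of 4804 with median scaling, where the median was -0.06, so small differences have no settled direction here. The arrays of the 2 cytokines shared no slide and only 1 scan day, that of array G of each. IFN-γ arrays E and F were scanned on a day without any IL-4 array. Once scan day was blocked the median was -0.021, and once slide was blocked it was -0.025. How much of the difference between the cytokines came from slide or scan day was not tested. Mgl2 averaged 5.43 ± 0.40 with IL-4 and -4.47 ± 0.62 with IFN-γ (SD, n = 4 and 3), a difference of 9.89 ± 0.37 (limma adjusted p = 5.14e-16). Arg1 (8.95 ± 0.68), Pdcd1lg2 (4.50 ± 0.66) and Il4i1 (5.49 ± 0.41) were higher with IL-4, and Retnla was at least 24313-fold higher. Of 45 alternative activation effectors 27 were higher and 10 lower with IL-4 than with IFN-γ. Cxcl10 averaged -0.29 ± 0.86 with IL-4 and 8.18 ± 0.34 with IFN-γ (-8.46 ± 0.30), and 44 of 45 type I interferon and antiviral genes and 16 of 16 interferon-inducible GTPases were lower with IL-4, Igtp with a difference of -4.31 ± 0.18. Some IL-4 rises were not told apart from the level with IFN-γ. Ocstamp averaged 3.32 ± 0.43 with IL-4 and 2.64 ± 0.80 with IFN-γ (0.68 ± 0.48, limma adjusted p = 0.3, 95% interval -0.31 to 1.67). Cish averaged 3.54 ± 0.55 with IL-4 and 2.44 ± 1.20 with IFN-γ (1.10 ± 0.71, limma adjusted p = 0.263, 95% interval -0.38 to 2.57). Cx3cr1 did not pass either (-1.18 ± 0.56, 95% interval -2.34 to -0.02), though it was called with scan day as a block (-1.52, limma adjusted p = 0.00161). Socs1 was lower with IL-4 (-0.86 ± 0.27, limma adjusted p = 0.0163), a call lost without IL-4 array B (-0.71, limma adjusted p = 0.0664) or IFN-γ array E (-0.85, limma adjusted p = 0.0529). It was also lost with normexp background correction (-1.06, limma adjusted p = 0.109), quantile normalization (-0.61, limma adjusted p = 0.0856) and the experiment letter as a block (-0.76, limma adjusted p = 0.0993). Il4ra was 2.56 ± 0.43 with IL-4 and 3.89 ± 0.39 with IFN-γ (-1.33 ± 0.39), a call lost without IFN-γ array F (-1.16, limma adjusted p = 0.0659). Class II genes were lower with IL-4 than with IFN-γ for 10 of 16 and higher for 0, with 6 lower under normexp background correction. Ciita did not pass (-1.05 ± 0.48, limma adjusted p = 0.11), but was called lower with median scaling (-1.42, limma adjusted p = 0.00878), slide as a block (-2.19, limma adjusted p = 2.20e-04) and scan day as a block (-1.99, limma adjusted p = 1.07e-04).

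**Figure D5:**
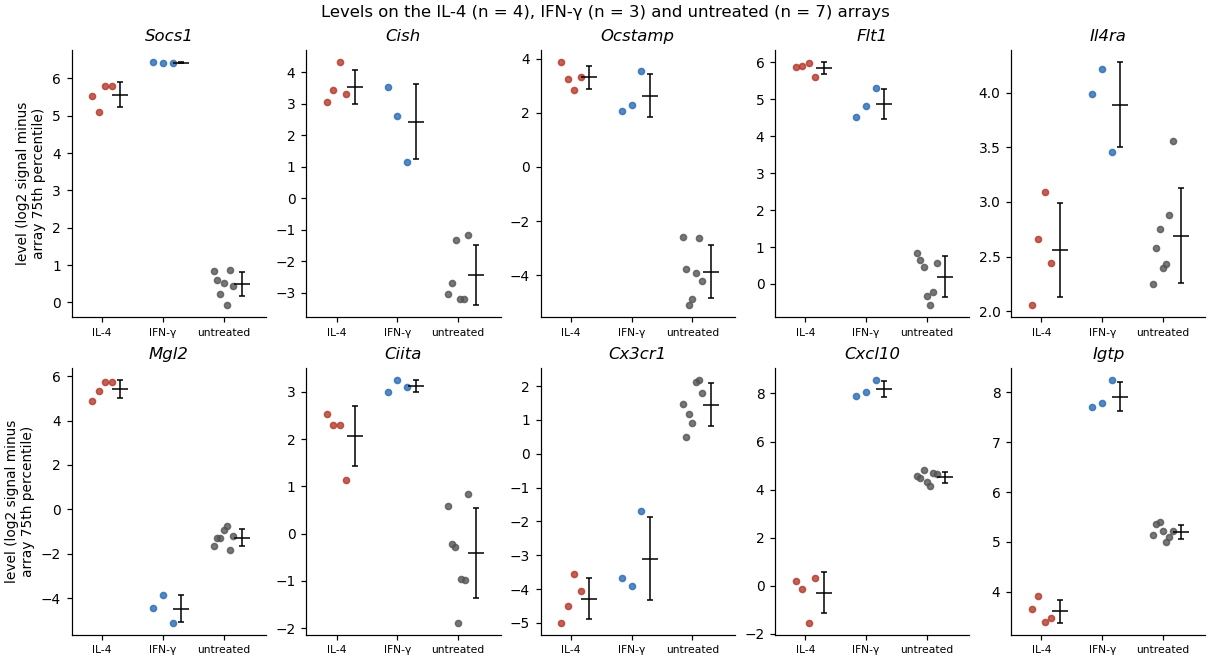
Level of 10 genes on each array (y axis, log2 processed signal minus the array's 75th percentile) with IL-4 (left), IFN-γ (middle) and no treatment (right), with the mean and SD as a bar beside the points. For Ocstamp and Cish the ranges of the 2 cytokines overlap, whereas all IL-4 points lie above all IFN-γ points for Mgl2 and below them for Igtp.

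Slides and scan days were not balanced between the groups. Slides 1 and 2 each held 1 IL-4 and 1 untreated array (experiments A and B), and 3 scan days held both groups. Of the 2531 calls, 2523 (99.7%) had the same direction on both of those slides and 2514 (99.3%) on all 3 scan days, although the same arrays made the calls. A block for slide gave 3057 called genes and a block for scan day 3926. Retnla, Arg1, Socs1, Cish, Egr2, Cxcl10, Ifit3, Cx3cr1, Cd14 and Acod1 were called in every alternative setting and with any 1 array left out. The rises of alternative activation effectors numbered 25 to 29 over all settings and arrays left out, and the falls 31 to 40 for type I interferon and antiviral genes, 10 to 14 for GTPases and 9 to 13 for CD300, PILR and TREM receptors. Other lists lost more calls with normexp background correction. There the falls numbered 4 for C-type lectins, 8 for chemoattractant receptors, 3 for cytokine receptors, 4 for integrins, 2 for matrix genes and 2 for growth factors. For scavenger receptors 0 rose and 3 fell in that setting, for small GTPases and regulators 4 rose and 0 fell, and for lysosome genes 2 rose.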

How the data were processed

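Total RNA was hybridised to 1-colour Agilent mouse arrays. Per the file headers, the authors' deposited intensity values were extracted with Agilent Feature Extraction 9.5.1 (a version the submitters' processing notes also give), with detrending on, background correction off and surrogates for low spots, and not normalised between arrays. From these, log2 of the processed signal minus the array's 75th percentile was computed, outlier spots were dropped, spots of a probe averaged and the brightest probe of a gene kept. Of 41174 probes, 22951 were named by accession, 6659 by current symbol, 3109 by synonym and 8455 kept the array's name. A gene was tested if well above background on at least 3 of 28 arrays (22446 genes). All 28 arrays entered 1 limma 3.58.1 fit of 6 group means (R 4.3.3, Benjamini-Hochberg, called under 0.05), and each adjusted p comes from it over all genes unless an alternative or a left-out array is named. The number of arrays limits the precision. The fit was tested on simulated data with independent noise and no slide, scan day or letter effects. That test says nothing of such effects in the real arrays. Alternatives are named in the closing section. The arrays, gene lists and tests were chosen with earlier results of these data known. Genes were named from the 25 largest rises and falls among called genes above background on every array of the brighter group. They were also drawn from up to 6 called members each way and 4 not called per list. The last source was the 10 largest interactions each way among genes called both there and for IL-4 alone. Not every gene of these sets is named, so the genes shown are not the whole ranking. All 16 tested members of the IL-4 receptor and STAT6 list are named, while Il13ra2 and Irs2 of its 18 members were not tested. Single genes were compared within a probe, never between probes. The summed marker levels add the signals of different probes, so bright probes weigh most in them.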

Additional observations from a re-analysis of the deposited data

Results flagged for a closer look

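Among the levels of the genes named above, 28 single values, each of 1 gene on 1 array, stood apart from the rest of their group. The gap to the next array was large for the group's whole range by Dixon's criterion at 95%. These values came from 404 groups of 4 to 7 arrays, each holding 1 gene under 1 treatment, and chance alone flags about 1 in 20 groups. Levels are log2 signal minus the array's 75th percentile, and each is followed by that of the next array. IL-4 array A was the highest for Il13ra1 at -3.67 (next -4.70), the lowest for Itgb3 at 1.62 (next 2.47) and the highest for Spp1 at 6.66 (next 6.06). IL-4 array B was the lowest for F7 at 1.93 (next 2.20), the highest for Gbp6 at -1.87 (next -2.92), the lowest for H2-Ob at -5.18 (next -4.78), the highest for Iigp1 at 1.87 (next 0.50) and the lowest for Ptpn6 at 3.58 (next 3.83). IL-4 array G was the lowest for Cxcl11 at -8.15 (next -7.53), the highest for Dok2 at 7.96 (next 7.15), the highest for Fth1 at 9.18 (next 8.13) and the lowest for Tet2 at -1.32 (next -0.13). Untreated array E was the lowest for Adgre1 at 6.81 (next 7.18), the lowest for Fth1 at 7.57 (next 7.95), the lowest for Junb at 4.84 (next 5.39), the highest for Mylk at -1.08 (next -2.07), the highest for Pilra at 3.16 (next 2.30) and the lowest for Ptpn1 at 4.47 (next 4.94). Untreated array F was the lowest for Jak1 at 3.21 (next 3.76). Untreated array G was the highest for Arg1 at -4.61 (next -6.33), the highest for Ccl24 at -1.82 (next -3.78), the lowest for Cd300e at 1.21 (next 1.96), the highest for Csf1r at 6.90 (next 6.25), the highest for Edn1 at -5.28 (next -7.01), the highest for Hbegf at -2.79 (next -4.25), the highest for Il4i1 at -0.80 (next -1.87), the highest for Slc7a2 at -3.49 (next -5.60) and the lowest for Spp1 at 7.19 (next 7.54).

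The IL-4 change without LPS differed from that with LPS by the interaction test (limma adjusted p under 0.05) for the genes compared above. On the log2 scale the difference, without minus with LPS, was 5.95 for Edn1, 4.51 for Socs1, 3.45 for Ocstamp, 3.28 for Il4i1, 3.35 for Rasgrp1, 3.34 for Tarm1 and 3.26 for Adora2b. It was -4.58 for Cxcl10, -4.11 for Cxcl2, -3.47 for Fpr2, -3.95 for Mylk and -3.60 for Mex3b.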

How the results depend on the processing

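With normexp background correction 734 genes differed between IL-4 and untreated cells (361 higher, 373 lower), 40 passed the interaction test (18 and 22), 3065 differed from IFN-γ (1363 and 1702) and 533 differed between IL-4 with LPS and LPS alone (258 and 275). In that setting the median over all genes was 0.24 for IL-4 against untreated, and 180 of the 2531 calls turned their sign. With median scaling these counts were 1522 (746 and 776), 184 (96 and 88), 4804 (1327 and 3477) and 1103 (412 and 691). With scan day as a block 3926 (1864 and 2062), 905 (391 and 514), 7006 and 3225 (1524 and 1701) were called, and with slide as a block 3057, 1062 (510 and 552), 7053 and 3835 (1923 and 1912). With only the arrays of the groups compared in the fit, 2892, 375, 4971 and 1154 (573 and 581) were called. With only experiments A, B, C and G of every group in the fit, 1524 differed from untreated (689 and 835), and with untreated arrays of the 3 scan days that hold both groups 1537 did (690 and 847). That last choice, and all alternatives for IL-4 with LPS against LPS alone, were added after seeing the data. H2-Ob turned to 0.09 with normexp background correction. With 1 array left out, 1947 to 2512 genes differed from untreated (992 to 1305 higher, 936 to 1229 lower), 263 to 396 passed the interaction test (110 to 180 and 140 to 223), 4505 to 6652 differed from IFN-γ (2197 to 3625 and 2308 to 3027) and 1559 to 2213 differed between IL-4 with LPS and LPS (717 to 1069 and 787 to 1144). Of 157 named genes called, 148 kept their call with any 1 array left out and 127 in every setting. The cause of these changes was not tested.

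Experiment letters were not treated as pairs. Deviations from the group means of IL-4 and untreated arrays with the same letter correlated at 0.591 for A and 0.433 for B, which also shared a slide and a scan day, but at -0.0609 for C and -0.219 for G. With the letter as a replicate block 1917 genes differed from untreated (922 higher, 995 lower), 293 passed the interaction test, 5022 differed from IFN-γ and 1545 differed between IL-4 with LPS and LPS alone. Of the 2531 calls, 2394 had the same direction within all 4 letters.

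Signal over background limits dim genes, and where no array of a group was above it the fold is given as a bound.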
